A study of Mus musculus with 22 samples.

Results

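The 10 genes described here encode the subunits of the AMPA receptors (Gria1, Gria2, Gria3 and Gria4) and 6 of the subunits of the NMDA receptors (Grin1, Grin2a, Grin2b, Grin2c, Grin2d and Grin3a). They were taken by gene name, and all 10 were found among the 34584 mouse genes listed in each count table. The remaining NMDA receptor gene, Grin3b, lies outside the chosen set and is given beside it. RNA-sequencing libraries came from frozen thymus, cerebrum and cerebellum of C57BL/6 mice of 2 genotypes. There were 4 libraries for each organ and genotype, except for cerebellum of Tol mice with 2. Tol mice are heterozygous for a transgene in which fragments of fluorescent proteins, luciferase and Cre are joined in shuffled order behind the broadly active CAG promoter. It was placed 3′ of Col1a1 by cassette exchange in embryonic stem cells. Its protein has no reporter or recombinase function by design, and it is the only labelled difference between the genotypes. WT mice are littermates without the transgene. Age and sex of the animals are not in the labels. The tissues were sequenced whole, so that fewer cells of a type and less RNA per cell cannot be told apart.

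Ionotropic glutamate receptors are ligand-gated cation channels that carry most fast excitatory transmission in the brain. AMPA receptors open and close quickly, and their calcium permeability is set by whether they hold the edited product of Gria2, GluA2. NMDA receptors need the obligatory subunit GluN1, the product of Grin1, together with GluN2 or GluN3 subunits; the GluN2 subunit present determines the magnesium block and the speed of channel closing. GluN2A and GluN2B are the known main partners in the adult forebrain, whereas GluN2C is known from cerebellar granule cells.

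Library totals ranged from 14543698 to 34776973 counts. The transgene row held 448 to 4628 counts in the Tol libraries and 0 to 2 in the WT libraries. Marker genes of 6 per cell type, summed as counts per M counts (CPM, scaled with TMM factors over all 22 libraries), matched the labelled organ in most libraries, with these exceptions. The library labelled cerebellum Tol 2 had a granule cell sum of 160.3 CPM and a Purkinje cell sum of 704.3 CPM. The other cerebellum libraries had 2099 to 5132 CPM and 3605 to 9382 CPM, and the cerebrum libraries 85.5 to 204.2 CPM and 898.8 to 1423 CPM. The library labelled cerebellum Tol 2 had a cortical and hippocampal sum of 23.2 CPM. This lay below the other cerebella, at 105.8 to 137.9 CPM, and the cerebra, at 546.7 to 915.2 CPM. Cerebellum WT 2 had the highest oligodendrocyte sum of all libraries, 17280 CPM against 5145 to 7192 CPM in the other WT cerebella, and the lowest granule cell sum of the WT cerebella. Cerebrum Tol 4 and cerebrum WT 3 had striatal sums of 1133 and 2188 CPM, against 137.3 to 251.7 CPM in the other 6 cerebra. In thymus the pan-neuronal sum was 25.4 to 36.8 CPM, against 5178 to 9912 CPM in the brain libraries.

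Levels of different genes were compared only as CPM per kilobase of the gene's summed exon length. In WT cerebrum, Gria1 was highest at 82.9 ± 25.2 CPM per kb (SD, n = 4). Grin1 followed at 55.0 ± 4.78 and Gria2 at 48.4 ± 3.33 CPM per kb (SD, n = 4). The range of Gria1 lay above that of Grin1, and Grin1 and Gria2 overlapped. Grin2b had 35.3 ± 7.81 and Gria3 32.5 ± 1.03 CPM per kb (SD, n = 4), again with overlapping ranges. Gria4 at 21.5 ± 1.69 and Grin2a at 19.4 ± 0.594 CPM per kb (SD, n = 4) overlapped as well. Grin2c stood apart below these at 10.4 ± 1.10 CPM per kb (SD, n = 4). Grin3a, at 4.41 ± 2.15, and Grin2d, at 2.72 ± 0.359 CPM per kb (SD, n = 4), were the lowest, with overlapping ranges.

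The order in WT cerebellum differed in its upper ranks. Gria1 had 92.8 ± 26.4 and Gria4 85.7 ± 19.1 CPM per kb (SD, n = 4). Grin2c followed at 59.8 ± 17.99 CPM per kb (SD, n = 4), above Grin1 at 34.8 ± 5.38 and Gria2 at 25 ± 5.39 CPM per kb (SD, n = 4). Each of these 5 overlapped in range with its neighbour, as did Gria2 with Gria3 at 16.9 ± 2.89 CPM per kb (SD, n = 4). Grin2a stood apart from its neighbours at 7.16 ± 1.33 CPM per kb (SD, n = 4). The lowest were Grin3a at 3.00 ± 0.617, Grin2b at 2.48 ± 0.834 and Grin2d at 2.25 ± 0.846 CPM per kb (SD, n = 4), which overlapped. Grin2b was thus rank 4 of the 10 subunits in WT cerebrum and rank 9 in WT cerebellum. The length of the longest transcript was also used in place of the summed exons. Grin1 then took rank 1 in WT cerebrum at 125 CPM per kb and rank 3 in WT cerebellum at 79.0 CPM per kb. Grin2b took rank 5 in WT cerebrum, at 36.5 CPM per kb below Gria3 at 61.5, and rank 10 in WT cerebellum. Grin2c took rank 4 in WT cerebellum, so that these places depend on the length used.

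**Figure D1:**
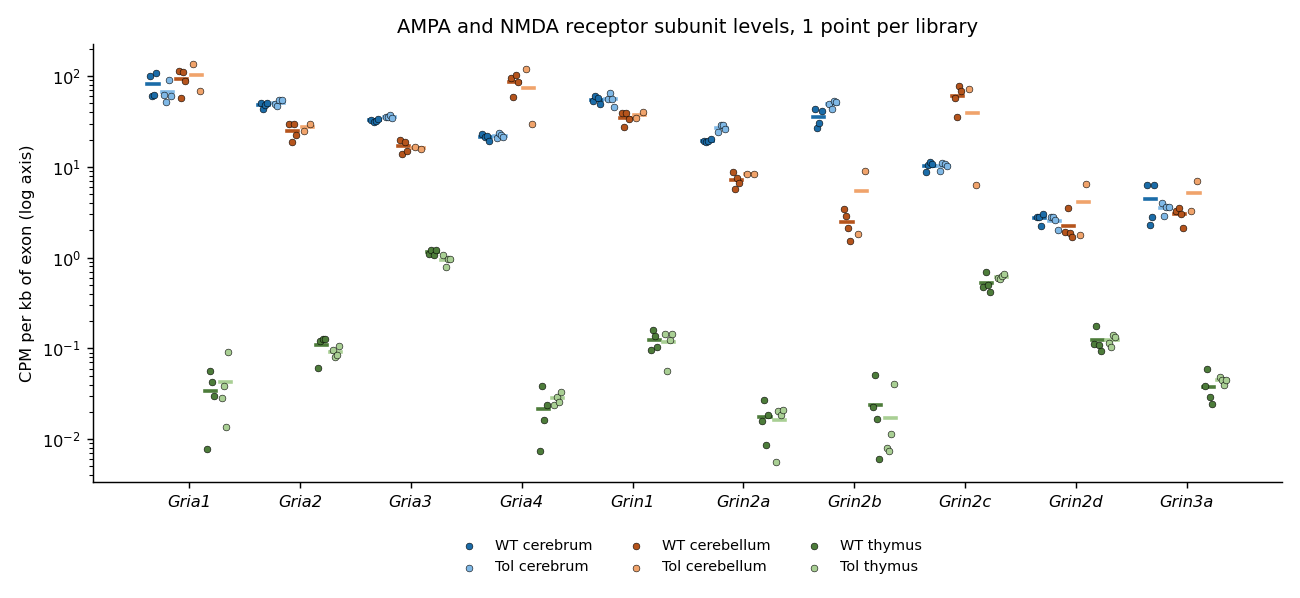
Level of each subunit in every library, as CPM per kb of summed exon length on a log axis, with 1 point per library and a bar at the group mean; colours mark organ and genotype. The thymus libraries lie below the brain libraries for every gene, Gria4 and Grin2c are higher in cerebellum than in cerebrum, Grin2b is lower, and the library labelled cerebellum Tol 2 is the low point of the Tol cerebellum pair for Gria4 and Grin2c.

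The first comparison asks which subunits differ between cerebellum and cerebrum in animals without the transgene. By edgeR's quasi-likelihood F test over 15877 genes, with Benjamini-Hochberg adjustment and a threshold of 0.05, 7 of the 10 subunits passed: Gria4 and Grin2c were higher in WT cerebellum, and Gria2, Gria3, Grin1, Grin2a and Grin2b were lower. Of all genes tested, 49.8% passed (25.6% higher, 24.2% lower), which is the share that the 7 of 10 are read against. The same 7 were those whose groups did not overlap, as for 47.3% of all genes (24.3% with cerebellum higher, 23.0% with cerebellum lower). The median log2 fold change was -0.61 over the 10 subunits and 0.04 over all genes tested. Without cerebellum WT 2 and cerebrum WT 3, the WT libraries with unusual marker sums, 8 of 10 subunits passed, with Grin2d added. That fit called 8059 genes in all, against 7900 with these libraries kept.

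Among the AMPA receptor subunits, Gria4 was the one that rose. Gria4 (chr9:4417896-4796234, minus strand, GRCm38) encodes GluA4, a subunit with fast gating. It had 147, 136, 138 and 121 CPM in WT cerebrum 1 to 4 and 599, 369, 644 and 550 CPM in WT cerebellum 1 to 4. The groups did not overlap, and cerebellum WT 2, the library with the high oligodendrocyte sum, was the lowest of the cerebella. This was a log2 fold change of 1.99 (SE 0.165, edgeR adjusted p = 3.7e-05), a 3.96-fold difference.

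Gria2 (chr3:80681450-80802835, minus strand) encodes GluA2, the subunit whose RNA is edited. Its values were 789, 684, 740 and 796 CPM in WT cerebrum and 457, 292, 460 and 346 CPM in WT cerebellum. The groups did not overlap, and the log2 fold change was -0.96 (SE 0.151, edgeR adjusted p = 0.000921). Gria3 (chrX:41400854-41678601, plus strand), which encodes GluA3, had 321, 309, 318 and 333 CPM in WT cerebrum and 196, 137, 185 and 147 CPM in WT cerebellum. It fell by nearly the same amount as Gria2, with a log2 fold change of -0.95 (SE 0.117, edgeR adjusted p = 0.000255).

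Gria1 (chr11:57011387-57330244, plus strand), which encodes GluA1, a subunit known for activity-dependent delivery to synapses, was as variable within an organ as between organs. It had 614, 364, 376 and 650 CPM in WT cerebrum and 685, 346, 679 and 532 CPM in WT cerebellum. The ranges overlapped, and the log2 fold change of 0.15 had a 95% interval of -0.46 to 0.76 (edgeR adjusted p = 0.664). This interval allows a difference in either direction.

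Grin1 (chr2:25291181-25319187, minus strand), the subunit that every NMDA receptor requires, had 515, 581, 560 and 477 CPM in WT cerebrum and 379, 269, 377 and 326 CPM in WT cerebellum. All cerebella lay below all cerebra. Grin1 thus fell, with a log2 fold change of -0.67 (SE 0.123, edgeR adjusted p = 0.00217).

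The GluN2 genes changed in opposite directions. Grin2b (chr6:135713233-136173511, minus strand), which encodes the slowly deactivating GluN2B, had 1067, 673, 753 and 1018 CPM in WT cerebrum. In WT cerebellum it had 85.2, 70.8, 53.0 and 37.7 CPM. Every cerebellum was thus far below every cerebrum, and the log2 fold change of -3.84 (SE 0.287, edgeR adjusted p = 2.25e-05) was the largest of the 10 subunits, a 14.3-fold difference.

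Grin2a (chr16:9567898-9995560, minus strand), which encodes the faster GluN2A, had 350, 334, 347 and 360 CPM in WT cerebrum and 157, 102, 136 and 118 CPM in WT cerebellum. The cerebra were within a narrow range of each other and did not overlap with the cerebella. Grin2a thus fell, with a log2 fold change of -1.45 (SE 0.125, edgeR adjusted p = 4.37e-05).

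Grin2c (chr11:115249169-115267243, minus strand), which encodes GluN2C, a subunit with weak magnesium block, went the other way. It had 44.2, 53.0, 57.0 and 54.2 CPM in WT cerebrum and 287, 180, 388 and 350 CPM in WT cerebellum. As for Gria4, cerebellum WT 2 was the lowest cerebellum and still above every cerebrum. Grin2c thus rose, with a log2 fold change of 2.52 (SE 0.223, edgeR adjusted p = 4.88e-05), a 5.74-fold difference.

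Grin2d (chr7:45831883-45878378, minus strand), which encodes GluN2D, a subunit known from interneurons and from the developing brain stem and thalamus, was low in both regions. It had 18.8, 18.6, 14.7 and 20.3 CPM in WT cerebrum and 12.9, 23.4, 12.4 and 11.2 CPM in WT cerebellum. The overlap came from 1 library, cerebellum WT 2. With all libraries its log2 fold change was -0.28 (SE 0.239, edgeR adjusted p = 0.359). Without cerebellum WT 2 alone it was -0.60 (edgeR adjusted p = 0.00489), and without cerebrum WT 3 as well -0.68 (edgeR adjusted p = 0.00125). Over the 15 alternatives the adjusted p ranged from 0.00125 to 0.571.

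Grin3a (chr4:49661611-49845744, minus strand) encodes GluN3A, which binds glycine and lowers the calcium permeability of the receptor. It had 76.8, 28.2, 34.5 and 76.8 CPM in WT cerebrum and 40.2, 43.7, 37.4 and 26.2 CPM in WT cerebellum. The cerebra split into a pair above all cerebella and a pair within the range of the cerebella, and the log2 fold change of -0.56 did not pass (SE 0.341, edgeR adjusted p = 0.201). Cerebrum WT 1 and WT 4, the pair with high Grin3a, were also the 2 WT cerebra with high Gria1. They had the lowest cortical and hippocampal marker sums of the WT cerebra, 546.7 and 585.9 CPM against 874.3 and 662.8 CPM in WT 2 and WT 3. Other marker sums split the same pairs, such as oligodendrocytes (5185 and 4883 against 7356 and 6716 CPM) and granule cells (198.1 and 204.2 against 131.9 and 85.5 CPM). Of the Tol cerebra, Tol 4 had the lowest cortical and hippocampal sum, 617.1 CPM, with Gria1 at 367 and Grin3a at 44.5 CPM, each within the range of the other Tol cerebra. The part of these markers in the WT split was not tested. Grin3b, the related subunit outside the set, was near the detection limit, with 0 to 8 counts per WT cerebrum and 28 to 54 counts per WT cerebellum. Its log2 fold change was 2.80 (SE 0.582, edgeR adjusted p = 0.00403). The annotated exons of Grin3b overlap those of Tmem259 on the opposite strand, and whether the counting used strand is not given in the sources used here.

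**Figure D2:**
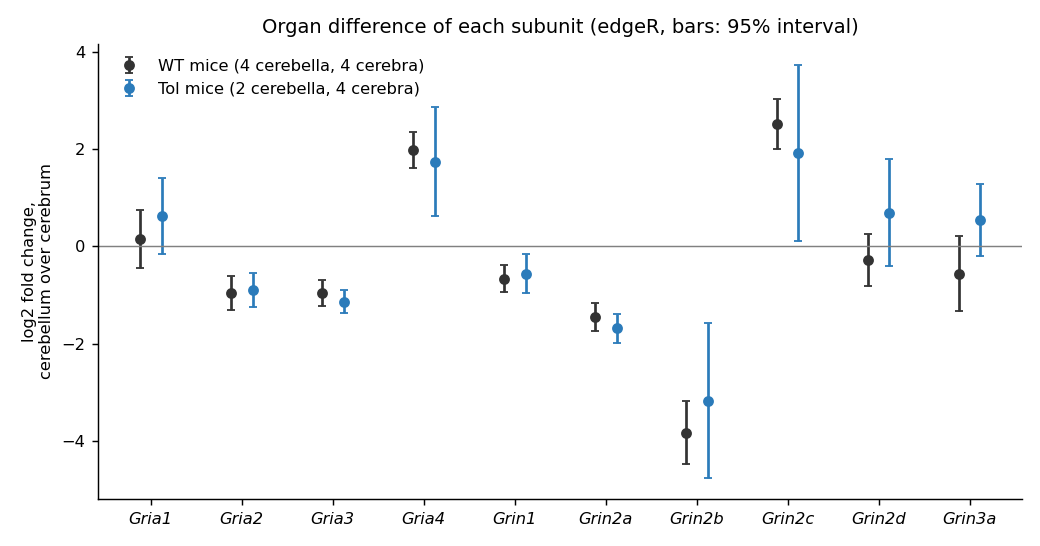
Log2 fold change of each subunit, cerebellum over cerebrum, with 95% intervals from edgeR, in WT mice (dark points, 4 cerebella and 4 cerebra) and Tol mice (blue points, 2 cerebella and 4 cerebra). Gria4 and Grin2c lie above 0 and Gria2, Gria3, Grin1, Grin2a and Grin2b below 0 in both genotypes, and the Tol intervals of Gria4, Grin2b, Grin2c and Grin2d are the wide ones.

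The same organ difference was computed in the Tol libraries, which are different samples. There, 4 of the 10 subunits passed, Gria2, Gria3, Grin2a and Grin2b, all lower in cerebellum, against 15.6% of the 16467 genes tested (7.4% higher, 8.17% lower). For Grin2b the Tol cerebella had 45.6 CPM (Tol 1) and 226 CPM (Tol 2), and the Tol cerebra 1091 to 1337 CPM. This gave a log2 fold change of -3.17 (SE 0.66, edgeR adjusted p = 0.028), and leaving out any 1 of the 4 Tol cerebra raised the adjusted p to between 0.0714 and 0.0815. For Grin2c the values were 360 CPM in cerebellum Tol 1 and 32.1 CPM in the library labelled cerebellum Tol 2, and 45.9 to 55.7 CPM in the Tol cerebra. For Gria4 they were 747 and 185 CPM against 131 to 151 CPM. In the library labelled cerebellum Tol 2, which had few granule and Purkinje cell marker counts, Grin2c lay below every cerebrum, and Gria4 lay above every cerebrum and below every other cerebellum. The part of the missing markers in these values was not tested.

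Without that library and without cerebrum Tol 4, 9 of the 10 subunits passed in Tol mice, all but Grin3a, while the genes called in all rose from 2564 to 7098. This fit rests on 1 cerebellum, assumed to vary like the cerebra. By edgeR, Gria4 was then at 2.40 on the log2 scale (adjusted p = 7.93e-05), Grin2c at 2.79 (adjusted p = 8.23e-05) and Grin2b at -4.74 (adjusted p = 7.12e-05). Over the 13 alternatives the edgeR or DESeq2 adjusted p ranged from 1.06e-05 to 0.498 for Gria4, from 9.27e-06 to 0.731 for Grin2c and from 4.23e-08 to 0.356 for Grin2b.

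Shares within a receptor family do not depend on the scaling between libraries. The 4 GluN2 genes, each per kb, were summed to 100% in every library. Grin2b made up 58.0%, 45.9%, 47.9% and 54.7% in WT cerebrum 1 to 4, and 4.83%, 5.96%, 2.41% and 1.91% in WT cerebellum 1 to 4. Grin2c made up 11.8%, 17.8%, 17.9% and 14.4% in WT cerebrum and 80.1%, 74.8%, 86.9% and 87.6% in WT cerebellum. The largest share thus passed from Grin2b in each WT cerebrum to Grin2c in each WT cerebellum. Grin2a made up 28.9% ± 2.65 and 10.3% ± 2.13, and Grin2d 4.03% ± 0.523 and 3.57% ± 2.52 (SD, n = 4 each). Cerebellum Tol 1, with 85.6% Grin2c, was within the WT range, and the library labelled cerebellum Tol 2 had 21.1% Grin2c, 30.1% Grin2b, 27.6% Grin2a and 21.2% Grin2d.

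Of the AMPA receptor sum, Gria1 had a similar share in both regions, 44.0% ± 6.79 in WT cerebrum and 41.7% ± 2.34 in WT cerebellum (SD, n = 4 each). The share of Gria4 was 11.2%, 13.8%, 13.4% and 9.06% in WT cerebrum and 36.9%, 39.5%, 38.8% and 41.0% in WT cerebellum. Gria2, the subunit that limits calcium entry, made up 26.4% ± 2.48 in WT cerebrum and 11.5% ± 0.901 in WT cerebellum, and Gria3 17.8% ± 2.31 and 7.81% ± 1.07 (SD, n = 4 each).

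**Figure D3:**
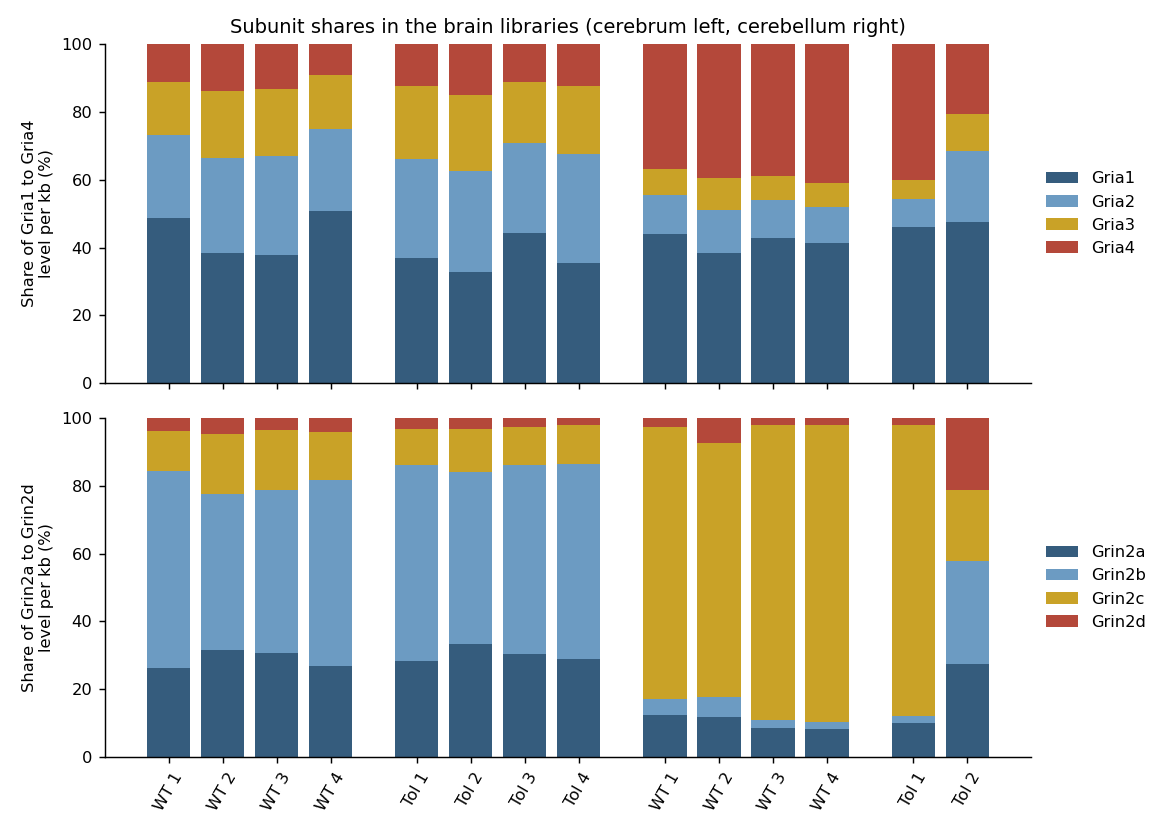
Share of each gene in the per-kb sum of Gria1 to Gria4 (upper panel) and of Grin2a to Grin2d (lower panel), in percent, with 1 stacked bar per brain library, cerebra on the left and cerebella on the right. Grin2c fills 74.8% to 87.6% of the WT cerebellum bars and 11.8% to 17.9% of the WT cerebrum bars, and the bar of the library labelled cerebellum Tol 2 differs from the other cerebella.

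5 log2 ratios of per-kb levels were tested in 3 comparisons, 15 tests in all, with two-sided exact permutation tests over libraries. Between WT cerebellum and WT cerebrum none of the 5 overlapped. The log2 ratio of Gria2 to the sum of the other AMPA subunits was -2.95 ± 0.127 in cerebellum and -1.48 ± 0.184 in cerebrum (SD, n = 4 each). Grin2a to Grin2b was 1.57 ± 0.499 and -0.84 ± 0.29, and Grin2c to Grin2b was 4.598 ± 0.889 and -1.75 ± 0.441 (SD, n = 4 each). The GluN2 sum over Grin1 was 1.02 ± 0.227 and 0.30 ± 0.293, and the AMPA sum over Grin1 2.64 ± 0.151 and 1.74 ± 0.348 (SD, n = 4 each). Each had an exact permutation p of 0.0286, the smallest that 4 against 4 libraries allow. The adjusted p over the 15 tests was 0.0857, which fails the threshold of 0.05. With only these 5 ratios at the smallest p, no lower adjusted p was possible, so that the adjusted test could not pass them. For the GluN2 sum over Grin1, the WT cerebellum minus WT cerebrum difference in log2 ratio was 0.72. It turned to -0.69 when levels were not divided by length. The values of both sums over Grin1 also depend on the length used. With the longest transcript in place of the summed exons, Grin1 in WT cerebrum went from 55.0 to 125 CPM per kb. Grin2b there went from 35.3 to 36.5 CPM per kb.

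Promoter sequence was available for Grin2c, Gria4, Gria2, Grin1 and Grin2d, 5 of the 10 genes, from RefSeq (GRCm38.p6). The 250 bases before the start are shown for the 2 genes that were higher in WT cerebellum and for 2 that were lower. The part of these sequences in the organ differences was not tested. All 4 genes lie on the minus strand, and the letters run 5′ to 3′ toward the gene. Capitals mark matches, on either strand, to a GC box (GGGCGG), the partial REST site GGACAGC or the partial CRE TGACG. The E-boxes CAGCTG and CAGATG were searched as well and not matched in these windows (13% and 14.4% of all windows hold them).
Grin2c (higher), chr11:115267244-115267493: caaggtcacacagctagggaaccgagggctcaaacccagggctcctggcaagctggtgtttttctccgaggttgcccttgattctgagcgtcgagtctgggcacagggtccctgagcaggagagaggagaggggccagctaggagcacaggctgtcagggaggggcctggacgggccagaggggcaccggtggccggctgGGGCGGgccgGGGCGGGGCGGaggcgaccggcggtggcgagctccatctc
Gria4 (higher), chr9:4796235-4796484: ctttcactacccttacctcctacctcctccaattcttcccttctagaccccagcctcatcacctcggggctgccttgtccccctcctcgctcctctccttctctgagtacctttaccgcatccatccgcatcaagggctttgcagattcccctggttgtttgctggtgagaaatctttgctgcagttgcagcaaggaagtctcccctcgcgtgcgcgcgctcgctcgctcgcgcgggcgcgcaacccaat
Gria2 (lower), chr3:80802836-80803085: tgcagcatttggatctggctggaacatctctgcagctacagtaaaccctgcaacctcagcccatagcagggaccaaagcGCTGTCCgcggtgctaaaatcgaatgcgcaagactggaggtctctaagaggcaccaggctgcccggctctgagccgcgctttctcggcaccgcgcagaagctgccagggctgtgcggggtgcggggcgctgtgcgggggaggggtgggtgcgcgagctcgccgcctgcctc
Grin1 (lower), chr2:25319188-25319437: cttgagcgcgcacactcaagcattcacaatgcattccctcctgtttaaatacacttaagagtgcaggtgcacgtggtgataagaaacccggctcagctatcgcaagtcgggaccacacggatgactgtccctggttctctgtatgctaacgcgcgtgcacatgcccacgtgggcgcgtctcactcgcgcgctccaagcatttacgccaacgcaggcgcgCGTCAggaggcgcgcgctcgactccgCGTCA

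The Grin2c window held 3 GC boxes, of which 2 share a base, a motif found in 32.7% of the 32851 windows of that length in the same table. The Gria2 window held the partial REST site 1 time (5.28% of windows), and the Grin1 window the partial CRE 2 times (17.8% of windows). In Gria4 none of the 5 motifs was found. The GC content was 68.8% for Grin2c, 64.8% for Gria2 and 58.8% for Gria4 and Grin1, against a median of 52.4% over all windows. These matches describe the letters only.

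In thymus, all 10 subunits were at a small fraction of their brain level. By edgeR, WT thymus against WT cerebrum, 10 of 10 were lower, in a comparison where 86.5% of the 16851 genes tested passed (45.1% higher, 41.4% lower). Log2 fold changes lay between -11.22 (Gria1, SE 0.372, edgeR adjusted p = 8.17e-10) and -4.30 (Grin2c, SE 0.158, edgeR adjusted p = 1.76e-09). For the lowest genes they depend on the prior count of the fit. For some genes the thymus values rested on few reads. The WT thymi held 1 to 7 counts of Gria1, 1 to 5 of Gria4 and 3 to 11 of Grin2a. They held 5 to 26 counts of Grin2b and 7 to 15 of Grin3a. The limit of detection, 3 counts in a library, came to 0.0863 to 0.206 CPM and allows for counting error alone.

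2 subunits stood above the others in thymus. Gria3 had 10.9, 11.96, 10.6 and 12.05 CPM in WT thymus 1 to 4, from 205 to 403 counts, and 1.15 ± 0.0743 CPM per kb (SD, n = 4). Grin2c had 2.40, 3.49, 2.54 and 2.09 CPM, from 49 to 72 counts, and 0.522 ± 0.119 CPM per kb (SD, n = 4). The other 8 had means of 0.0174 to 0.125 CPM per kb. Gria3 therefore held 87.7% ± 4.03 of the AMPA receptor sum, and Grin2c 76.5% ± 2.48 of the GluN2 sum in WT thymus (SD, n = 4 each). Grin1, without which no NMDA receptor is assembled, was present at 0.940 to 1.55 CPM.

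The second set of comparisons asks whether the transgene changed the subunits within an organ. In cerebrum, 0 of the 10 subunits and 0.0% of the 15596 genes tested passed by edgeR. The labels do not tie libraries to individual mice, so that p-values measure the spread between these samples. At an unadjusted p under 0.05 there were 1505 genes, 9.65%, and DESeq2 called 182 genes, of which Grin2a was the 1 subunit. The median log2 fold change was 0.04 over the 10 subunits and -0.005 over all genes.

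Grin2a had the lowest p of the set. Its values were 440, 517, 524 and 469 CPM in Tol cerebrum 1 to 4 and 350, 334, 347 and 360 CPM in WT cerebrum 1 to 4, all Tol above all WT. Groups did not overlap for 6.47% of the genes tested (3.31% with Tol higher, 3.16% with Tol lower). The log2 fold change was 0.49 (SE 0.071, 95% interval 0.33 to 0.65, unadjusted p = 6.64e-05, edgeR adjusted p = 0.159), rank 6 of 15596 by p. The difference was larger than the spread within either group, with group means of 487 ± 39.7 and 348 ± 10.6 CPM (SD, n = 4 each), and higher in 4 of 4 Tol libraries, but it failed the adjustment. Over the 15 alternatives it stayed between 0.46 and 0.54, and the adjusted p between 1.99e-07 (DESeq2, the 1 alternative that called it) and 0.418.

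Grin2b moved by a similar amount with more spread. It had 1238, 1091, 1337 and 1293 CPM in Tol cerebrum and 1067, 673, 753 and 1018 CPM in WT cerebrum. The lowest Tol library lay just above the highest WT library on this scale. Without TMM scaling the 2 groups overlapped, with 921 CPM in Tol 2 and 937 CPM in WT 1. For Grin2b the log2 fold change was 0.50 (SE 0.151, 95% interval 0.16 to 0.84, unadjusted p = 0.00856, edgeR adjusted p = 0.336). Gria3 had 353, 349, 368 and 338 CPM in Tol cerebrum and 321, 309, 318 and 333 CPM in WT cerebrum, without overlap on the TMM scale. Without TMM scaling these groups overlapped as well, with 294 CPM in Tol 2 and 298 CPM in WT 4. Its log2 fold change was 0.14 (SE 0.055, unadjusted p = 0.0336, edgeR adjusted p = 0.46).

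The other 7 subunits had adjusted p-values of 0.706 to 0.991 in Tol against WT cerebrum (edgeR), with log2 fold changes from -0.32 (Gria1) to 0.08 (Gria2), and overlapping groups. The interval of the difference was narrow for Gria4, -0.12 to 0.21, and for Grin2c, -0.22 to 0.21, and wide for Grin3a, -1.02 to 0.40. Marker sums of other cells ranged as follows beside these values. The pan-neuronal sum ranged from 8364 to 9912 CPM in Tol cerebra and from 7081 to 8855 CPM in WT cerebra, the cortical and hippocampal sum 617.1 to 915.2 and 546.7 to 874.3 CPM, and the oligodendrocyte sum 4650 to 5649 and 4883 to 7356 CPM, and their part in the results was not tested. Without cerebrum Tol 4 and WT 3, the libraries with striatal markers, the log2 fold change was 0.50 for Grin2a and 0.41 for Grin2b.

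Fold changes between Tol and WT cerebrum also varied with transcript length. The log2 fold change and the length of the longest transcript had a Spearman rho of 0.156 across 15566 genes, which share the same 8 libraries and are not independent. The 403 genes with a longest transcript of at least 10 kb had a median log2 fold change of 0.14, and 3.72% of these genes were at or above the value of Grin2a. Grin2a (14634 bases), Grin2b (24060 bases) and Gria2 (10371 bases, log2 fold change 0.08) are among these long transcripts. The part of length in their values was not tested.

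**Figure D4:**
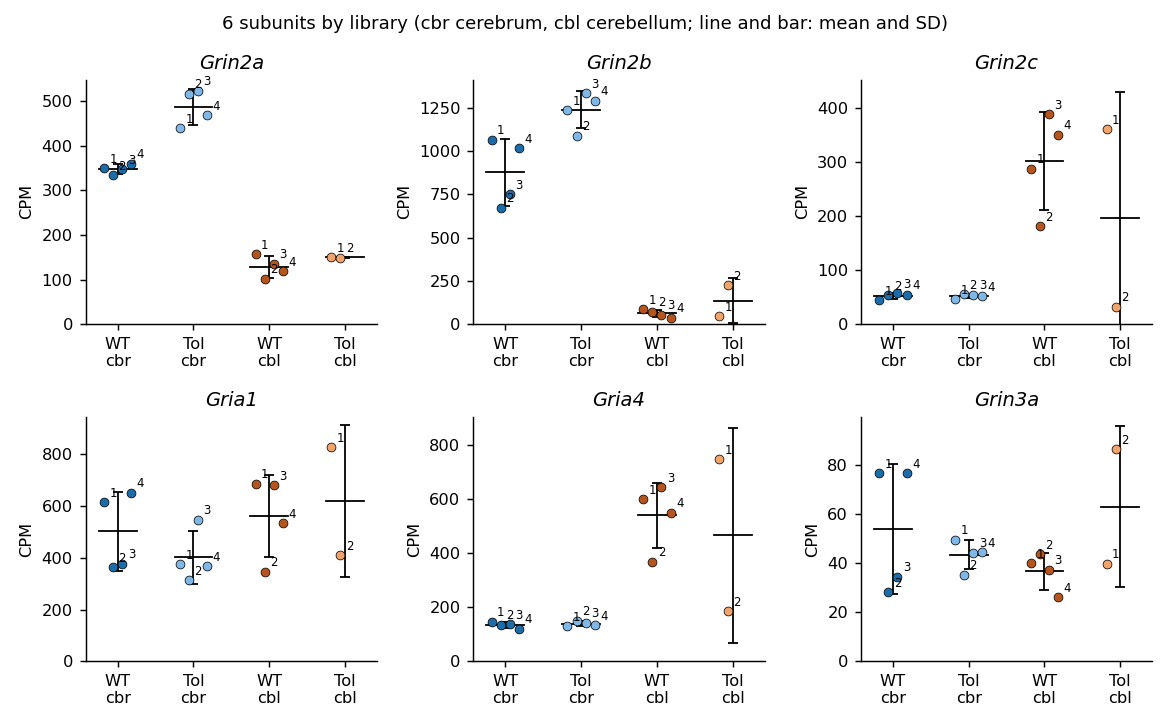
CPM of 6 subunits by library, with replicate numbers at the points and the mean and SD of each group, in cerebrum (cbr) and cerebellum (cbl) of WT and Tol mice. The Tol cerebra lie above the WT cerebra for Grin2a (440 to 524 against 334 to 360 CPM), and cerebellum Tol 1 and Tol 2 lie far apart for Grin2b, Grin2c and Gria4.

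In cerebellum, 0 of the 10 subunits passed in Tol against WT, and 0.0% of the 16662 genes tested by edgeR, with 527 genes at an unadjusted p under 0.05 (3.16%) and 4 genes called by DESeq2. The groups were 2 Tol and 4 WT libraries, and the 2 Tol libraries lay far apart for several subunits. For Grin2b, Grin2d and Grin3a, Tol 1 was inside the WT range and Tol 2 above it. For Gria4, Tol 1 (747 CPM) was above the WT range of 369 to 644 CPM and Tol 2 (185 CPM) below it. For Grin2c, Tol 1 (360 CPM) was inside the WT range of 180 to 388 CPM and Tol 2 (32.1 CPM) below it, and for Gria1, Tol 1 (825 CPM) was above the WT range of 346 to 685 CPM and Tol 2 (410 CPM) inside it. For Grin2b, Tol 1 had 45.6 and Tol 2 226 CPM, against 37.7 to 85.2 CPM in WT. For Grin2d they had 11.9 and 42.7 CPM, against 11.2 to 23.4 CPM. For Grin3a they had 39.9 and 86.6 CPM, against 26.2 to 43.7 CPM, and the log2 fold change of 0.81 had the lowest p of the set (SE 0.346, unadjusted p = 0.0573, edgeR adjusted p = 0.957). Without the library labelled cerebellum Tol 2 it was 0.11, without cerebellum Tol 1 it was 1.27, and without the libraries with unusual marker sums 0.20.

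Grin2a was less divided, with 151 and 149 CPM in the Tol cerebella and 102 to 157 CPM in WT, a log2 fold change of 0.25 with a 95% interval of -0.18 to 0.69 (edgeR adjusted p = 0.957). Without the library labelled cerebellum Tol 2 and cerebellum WT 2, the log2 fold changes of Grin2b, Grin2d, Grin2c and Gria4 turned from 1.18, 0.90, -0.61 and -0.20 to -0.36, -0.04, 0.08 and 0.32. Leaving out the library labelled cerebellum Tol 2 alone gave -0.43, -0.33, 0.26 and 0.47, so that the direction of these 4 subunits rests on that library. The difference between the effect of Tol in cerebellum and in cerebrum, tested as an interaction over 14 libraries, passed for 0 of the 10 subunits and 0.0% of 17130 genes (1044 genes at an unadjusted p under 0.05, 6.09%, and 5 genes called by DESeq2). The lowest p was that of Grin3a, with a difference of 1.13 on the log2 scale (SE 0.517, unadjusted p = 0.0483, edgeR adjusted p = 0.811). It was 0.45 without the library labelled cerebellum Tol 2, 1.59 without cerebellum Tol 1 and 0.72 without the libraries with unusual marker sums.

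In thymus, Gria1, Gria4, Grin2a and Grin2b did not pass the filter on low counts, and 0 of the 6 other subunits passed the test in Tol against WT. Of the 16248 genes tested, 0.0985% passed, 16 genes (0.0554% higher, 0.0431% lower), with 3964 genes at an unadjusted p under 0.05 (24.4%) and 1252 genes called by DESeq2. Gria3 had 10.6, 7.73, 9.50 and 9.42 CPM in Tol thymus and 10.9, 11.96, 10.6 and 12.05 CPM in WT thymus. The highest Tol library and the lowest WT library were almost equal, and groups did not overlap for 11.6% of genes (6.11% with Tol higher, 5.5% with Tol lower). The log2 fold change was -0.28 (SE 0.1, 95% interval -0.50 to -0.06, unadjusted p = 0.0166, edgeR adjusted p = 0.132). Leaving out thymus Tol 1 gave an edgeR adjusted p of 0.0361, the 1 alternative of 14 that called Gria3, in a range of 0.0361 to 0.309. That fit called 2978 genes in all, against 16 with all libraries. Genes with a longest transcript of at least 10 kb had a median log2 fold change of -0.18 in this comparison, with a Spearman rho of -0.383 over 16219 genes. The longest transcript of Gria3 has 5206 bases. Grin2c had 2.98, 2.90, 3.15 and 3.30 CPM in Tol thymus, within the WT range of 2.09 to 3.49 CPM.

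**Figure D5:**
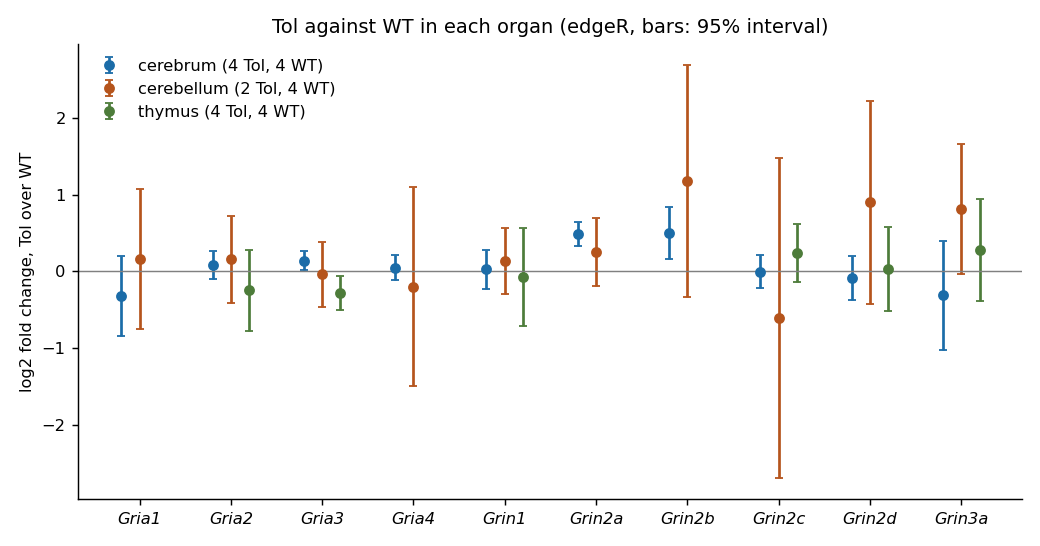
Log2 fold change of each subunit, Tol over WT, with 95% intervals from edgeR, in cerebrum (4 against 4 libraries), cerebellum (2 against 4) and thymus (4 against 4). The intervals of Grin2a, Grin2b and Gria3 in cerebrum and of Gria3 in thymus leave out 0, none of the subunits passes the adjusted threshold, and the cerebellum intervals are the widest for every subunit except Grin1.

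Between Tol and WT cerebrum, the 5 subunit ratios had exact permutation p-values of 0.0571 to 0.914. The lowest was that of Grin2c to Grin2b, with a log2 ratio of -2.28 ± 0.2 in Tol and -1.75 ± 0.441 in WT (SD, n = 4 each, exact permutation p adjusted over 15 tests = 0.143). The log2 ratio of Grin2a to Grin2b was -0.88 ± 0.189 and -0.84 ± 0.29 (SD, n = 4 each, exact permutation p = 0.914). Between Tol and WT cerebellum the p-values were 0.4 to 0.733, where 2 against 4 libraries cannot give an exact p below 0.0667.

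The genes around the receptors were described with lists of their families in WT cerebellum against WT cerebrum. The counts below are read against the 25.6% of all genes that were higher and the 24.2% that were lower. Of 7 kainate and delta receptor subunits, 3 were higher and 3 lower. Grik5, a kainate receptor subunit, fell, with a log2 fold change of -1.61 (SE 0.074, edgeR adjusted p = 5.1e-06). Of 7 metabotropic glutamate receptors tested, 2 were higher and 5 lower. Grm4, a presynaptic receptor of granule cells, had 3.61 (SE 0.335, edgeR adjusted p = 6.18e-05) and Grm5, a postsynaptic receptor of the forebrain, -2.93 (SE 0.588, edgeR adjusted p = 0.00337). Of 12 AMPA receptor auxiliary proteins, which set receptor trafficking and gating, 3 were higher and 7 lower. Cacng3, a TARP, fell by 3.86 and Shisa7 by 3.42 on the log2 scale (SE 0.263 and 0.275, edgeR adjusted p = 1.63e-05 and 3.21e-05).

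Postsynaptic scaffold proteins and kinases were mostly lower in cerebellum: 15 of 21 were lower and 1 higher, against 24.2% and 25.6% of all genes, with a median log2 fold change of -0.95 against 0.04 over all genes. The higher one was Homer3, a scaffold protein of Purkinje cells, at 5.35 (SE 0.329, edgeR adjusted p = 1.14e-05). Camk2a, the kinase that NMDA receptors activate, fell from 3939 ± 551 CPM in WT cerebrum to 145 ± 100 CPM in WT cerebellum (SD, n = 4 each), a log2 fold change of -4.78 (SE 0.46, edgeR adjusted p = 7.21e-05). Of 7 genes of glutamate release and uptake, 2 were higher and 4 lower (against 25.6% and 24.2% of all genes), with Slc1a6, the Purkinje cell glutamate transporter, at 4.04 (SE 0.343, edgeR adjusted p = 4e-05) and Slc17a8, a vesicular glutamate transporter, at -3.50 (SE 0.696, edgeR adjusted p = 0.00323). Of the 3 RNA editing enzymes, Adarb1, which edits the Gria2 transcript, had 0.73 (SE 0.131, edgeR adjusted p = 0.00193) and Adar -0.35 (SE 0.09, edgeR adjusted p = 0.0109).

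None of these lists had a member past the threshold in Tol against WT in any organ by edgeR. In cerebrum the lowest unadjusted p of edgeR in 5 of the 6 lists belonged to Cnih2 (log2 fold change -0.30), Dlgap2 (0.13), Grm7 (0.15), Slc1a1 (-0.14) and Adarb1 (0.08), with edgeR adjusted p-values of 0.467 to 0.893. By edgeR in cerebellum the lowest of each of the 6 lists belonged to Dlgap3 (0.35), Shisa9 (0.87), Grik5 (0.29), Grm7 (0.62), Adarb2 (0.48) and Slc1a2 (0.38), each with an edgeR adjusted p of 0.957. Without the library labelled cerebellum Tol 2, Shisa9 was at 0.14, Grik5 at 0.05, Grm7 at -0.27 and Slc1a2 at -0.29, Adarb2 was near 0, and Dlgap3 was at 0.37.

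Genes with the most similar pattern to each subunit, at most 3, were taken by Pearson correlation of log2(CPM + 1) over the 22 libraries, among 15703 genes with a mean of at least 1 CPM. Since 8 of these libraries are thymi with low values of every subunit, all the highest correlations were close to 1, and they are given as a description. For Gria4 they were Dner, Cdh18 and Olfm3 (r = 0.999, 0.999 and 0.998), and for Grin2c Gng13, Asph and Lurap1 (r = 0.997, 0.996 and 0.996). For Grin2b, Shisa7 and Ncan were among them (each r = 0.996). Cap2 appeared for both Gria3 and Grin2a. Gria3 was also closest to Dclk1 and Nckap1, and Grin2a to Actr3b and Ccdc177. Gria1 was closest to Syt4, Gdap1l1 and Sh3gl2, and Grin1 to Rtn1, Kif5c and Atp6v1g2. Lgi1 and Fbxo41 were among the closest to Gria2. The low-level subunits had slightly lower values, from 0.993 to 0.995 for Grin2d (B630019K06Rik, Ankrd24 and Dok7) and from 0.995 to 0.996 for Grin3a (Pnmal2, Adcyap1r1 and Pnma3).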

How the data were processed

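Poly(A) RNA of frozen tissue was sequenced with a stranded kit. The deposited values are estimated counts, stored as whole numbers; per the labels and the methods, the authors made them with Salmon 0.14.1 against GRCm38 transcripts and the Tol transcript, and used edgeR 3.9. The annotation release, the summing to genes and the use of strand are not given in the sources used here. The deposited tables hold 34585 rows, of which 1 is the transgene, which stayed out of the tests, and no sample column was left unused. Groups came from the labels.

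The subunits and related gene lists were chosen with earlier results of these data known. Each comparison was fitted in edgeR 4.0.16 (R 4.3.3) on the libraries of its groups, with TMM, filterByExpr, the quasi-likelihood F test and Benjamini-Hochberg adjustment over all genes, called at 0.05; the interaction used the brain libraries. Ratios were compared by two-sided exact permutation tests. Lengths came from GENCODE release M21. Named genes were the 10 subunits, Grin3b, of each related list the 2 largest log2 changes past the threshold between WT cerebellum and WT cerebrum and the lowest unadjusted p between Tol and WT in each brain region, and 3 genes per subunit for similarity. A few genes that this rule names are not reported here. The scripts were tested on simulated data. Totals of 14543698 to 34776973 counts set the precision.

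Alternatives were DESeq2 (1.42.0), its size factors within edgeR, no filter, at least 10 counts in every library, all 22 libraries in 1 fit, the replicate number as a block, each replicate left out, and other lengths. Leaving out the 4 libraries with unusual marker sums was chosen after seeing the data. No libraries agreed within sampling noise (31 pairs within groups). Deviations of same-numbered libraries correlated between -0.441 and 0.714 over all comparisons. Between organs of the same genotype they correlated between -0.134 and 0.145. The labels do not say whether equal numbers mark the same mouse, and the numbers were not taken as pairs. The paper gives 4 Tol and 4 WT mice for its expression plots, so that libraries of different organs may share mice. The comparisons between organs took these libraries as independent.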

Additional observations from a re-analysis of the deposited data

Results flagged for a closer look

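Of 65 groups of 4 libraries tested for a library far from the others (Dixon's ratio at the 95% level), 3 were flagged, where chance gives about 3.25. Grin2d in cerebellum WT 2 was high, at 23.36 CPM against 12.92 CPM in the next library, and that library also had the highest oligodendrocyte marker sum, 17280 CPM. The part of that marker sum in the Grin2d value was not tested. Grin2b in thymus Tol 4 was high, at 1.014 CPM, from 24 counts, against 0.2867 CPM in the next library. Gria2 in thymus WT 1 was low, at 0.9397 CPM against 1.888 CPM in the next library.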

How the results depend on the processing

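In WT cerebellum against WT cerebrum, 7 or 8 of the 10 subunits passed under each of the 15 alternatives, and in WT thymus against WT cerebrum 10 passed, except that 5 remained tested and passed with at least 10 counts in every library. DESeq2 called 1 subunit (Grin2a) and 182 genes in Tol against WT cerebrum. There, all 22 libraries in 1 fit gave 22 genes, and leaving out the libraries with unusual marker sums gave 2. DESeq2 called 4 genes in Tol against WT cerebellum. In Tol against WT thymus, 1252 genes were called by DESeq2, 130 without a filter, 85 with at least 10 counts in every library and 5 with the replicate block. In Tol cerebellum against Tol cerebrum, 7 subunits passed by DESeq2, 7 with all 22 libraries (5573 genes), 0 with the replicate block (0 genes) and 9 without the libraries with markers of another region (7098 genes). The interaction had 5 genes by DESeq2. The replicate block changed no other count of calls by over 1.5 times, and the labels do not say whether the numbers mark pairs. The cause of these changes was not tested.

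Without the libraries with unusual marker sums, signs turned as follows. In Tol against WT cerebrum Grin2c was 0.04. The Tol minus WT difference in the log2 ratio of Grin2a to Grin2b was 0.06, against -0.04 with all cerebrum libraries. In Tol against WT cerebellum Gria2 was -0.14, Gria4 0.32, Grin1 -0.09, Grin2b -0.36, Grin2c 0.08, Grin2d -0.04, Adarb2 -0.02, Grm7 -0.27 and Slc1a2 -0.13 (-0.01 with the replicate block). The Tol minus WT differences of the 5 log2 ratios, in the order given for WT, were -0.45, 0.43, 0.37, 0.16 and 0.37. With all cerebellum libraries these differences were 0.27, -0.54, -2.21, -0.59 and -0.18. In Tol cerebellum against Tol cerebrum Grin2d was -0.61 and Grin3a -0.12. In the interaction Gria2 was -0.14, Gria4 0.28, Grin1 -0.19, Grin2b -0.75 and Grin2c 0.07. The WT cerebellum minus WT cerebrum differences of the 5 log2 ratios were -1.46, 2.67, 6.77, 0.74 and 0.89. Each had an exact permutation p of 0.1, the smallest for 3 against 3 libraries. With all WT libraries these differences were -1.47, 2.41, 6.35, 0.72 and 0.90. With all WT libraries and without division by length, the difference for the GluN2 sum over Grin1 was -0.69.

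Leaving out 1 library at a time gave these ranges. In Tol against WT cerebrum there were 0 to 6 genes (6 without WT 3). There Gria4 was 0.00 to 0.09, Grin1 -0.06 to 0.11, Grin2c -0.08 to 0.05, Grin2d -0.17 to 0.01 and Adarb1 -0.01 to 0.17. The Tol minus WT difference in log2 ratio was -0.14 to 0.06 for Grin2a to Grin2b and -0.71 to -0.40 for Grin2c to Grin2b. For the AMPA sum over Grin1 it was -0.21 to 0.04. In Tol against WT cerebellum Gria1 was -0.41 to 0.56, Gria2 -0.02 to 0.31, Gria3 -0.14 to 0.03, Gria4 -1.50 to 0.47 and Grin2b -0.43 to 1.92. There Grin2c was -3.19 to 0.26, Grin2d -0.33 to 1.55, Adarb2 0.00 to 0.84, Grm7 -0.27 to 1.16 and Slc1a2 -0.29 to 0.82. The Tol minus WT differences of the 5 log2 ratios in cerebellum were -0.51 to 1.04, -1.70 to 0.62, -5.11 to 0.68, -1.42 to 0.24 and -0.80 to 0.44. In thymus there were 0 to 1 subunits and 0 to 2978 genes (both highest without Tol 1), Grin1 -0.18 to 0.14 and Grin2d -0.10 to 0.24. In Tol cerebellum against Tol cerebrum there were 2 to 8 subunits (8 without either Tol cerebellum) and 755 to 6652 genes (6652 without Tol 2), Grin2c -0.68 to 2.79, Grin2d -0.53 to 1.33 and Grin3a -0.13 to 1. The interaction had 0 to 4 subunits and 0 to 1502 genes (both highest without cerebellum Tol 1, which leaves the library labelled cerebellum Tol 2), Gria1 -0.08 to 0.91, Gria2 -0.07 to 0.23, Gria4 -1.54 to 0.45, Grin2b -0.91 to 1.42, Grin2c -3.17 to 0.30 and Grin2d -0.22 to 1.64. The WT cerebellum minus WT cerebrum difference in the log2 ratio of the GluN2 sum to Grin1 was 0.61 to 0.82. With 1 Tol cerebellum left, that library was assumed to vary like the other groups. Depth limits the thymus values of Gria1, Gria4, Grin2a, Grin2b and Grin3a, which rest on 1 to 26 counts a library.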
